A study of Mus musculus with 6 samples.

Results

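The p53 target genes Cdkn1a, Mdm2, Ccng1, Bbc3, Trp53inp1, Phlda3, Sesn2 and Zmat3 were examined in the RNA of mouse platelets. They were chosen by symbol, as textbook targets of p53, and all 8 were among the 14975 genes of the deposited expression table. None of the 8 differed between control and pre-AML platelets past the adjusted threshold, and 5 of them had enough signal to enter the test across genes. Cdkn1a and Phlda3 had higher means in pre-AML platelets (15.4 ± 6.02 against 10.1 ± 3.23 FPKM and 57.0 ± 1.12 against 46.1 ± 9.88 FPKM; SD, n = 3), Ccng1 and Trp53inp1 had lower ones (6.97 ± 0.560 against 8.69 ± 0.529 FPKM and 7.91 ± 3.26 against 10.5 ± 2.69 FPKM), and Mdm2 was near its control level. The sign was the same under every alternative run for Cdkn1a, Phlda3 and Trp53inp1. It turned for Ccng1 when trends with GC content and length were removed, and for Mdm2 in 5 of 15 alternatives. With these trends removed, the log2 fold changes of Phlda3 (0.08), Trp53inp1 (-0.07), Ccng1 (0.08) and Mdm2 (0.06) were all smaller in size than their standard errors. A kept sign is thus no sign of a stable difference for Phlda3 and Trp53inp1. FPKM is the count of sequenced fragments scaled by transcript length and library size, so that levels can be set side by side between genes of different length.

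Platelets were taken 1 week after transplantation from young adult female mice on a C57BL/6 background. Pre-AML mice had received leukemia cells from primary recipients, in which hematopoietic progenitors carried a retrovirus encoding the fusion oncogene MLL-AF9 together with GFP, and control mice had received normal bone marrow. The labels name these groups AML and WT and give no week, the names control 1 to 3 and pre-AML 1 to 3 are used here, and each group had 3 libraries. The labels speak of 2 replicates per group and of pools of mice, although 3 samples per group are listed, and the study's methods speak of 3 independent mice. What a replicate stands for is therefore uncertain, and p-values and SDs measure the spread between libraries, which may be partly technical. According to the study's methods recipients in both groups were irradiated before the transplant, and no library of mice without a transplant was analysed here. Platelets of host and of donor origin were not separated. An effect of irradiation or transplantation shared by both groups can therefore not be seen in this comparison, which asks only whether the 2 groups of recipients differed in these genes.

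p53 is a transcription factor held at a low level by the ubiquitin ligase Mdm2 and released upon DNA damage, oncogene activity and ribosomal stress. It binds pairs of a short palindromic motif and raises genes that halt the cell cycle, start apoptosis, repair DNA or limit oxidative stress, and it also raises Mdm2, which closes a feedback loop. Platelets have no nucleus and transcribe no nuclear genes, so their RNA is what the megakaryocyte passed on, less what decayed in the circulation. A level in platelets is thus not a direct reading of p53 activity at the time of collection.

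Pre-AML 3 stood apart from the other libraries. Its Spearman correlations with them were 0.842 to 0.880, beside 0.962 to 0.973 for the other 10 pairs, and its platelet markers summed to 61311 FPKM, beside 89764 to 113807 FPKM in the other 5 libraries, with Pf4 and Ppbp among the 10 listed. The FPKM of all genes also summed to less in pre-AML 3, to 376148, beside 508605 to 541784 in the other libraries. Its lower sum of platelet markers is thus largely a matter of scale. It held transcripts of other blood cells. The 6 B cell markers in the table summed to 226 FPKM, beside 1.38 to 1.86 FPKM in control, 0.881 FPKM in pre-AML 1 and 19.3 FPKM in pre-AML 2. Most of this was Cd74, at 168 FPKM in pre-AML 3 and 15.2 FPKM in pre-AML 2, while Cd79b was at 23.2 and 1.90 FPKM. The monocyte marker Tyrobp was at 153 FPKM in pre-AML 3, beside at most 4.85 FPKM elsewhere. T and NK cell markers summed to 19.1 to 28.6 FPKM in control and 33.8 to 42.7 FPKM in pre-AML libraries. Among them Nkg7 overlapped (18.9 to 28.2 against 22.6 to 27.9 FPKM), and Gzma was at 0 to 0.353 against 4.61 to 8.90 FPKM. In the same order of groups, erythroid markers summed to 2350 to 2652 and 2377 to 2991 FPKM. Monocyte and macrophage markers summed to 2385 to 2616 and 2341 to 3528 FPKM, and neutrophil markers to 2.05 to 2.98 and 0.661 to 3.55 FPKM. Leukemic progenitor markers summed to 1.28 to 2.51 FPKM in control and 1.04 to 1.69 FPKM in pre-AML libraries. The genes at 0 in every control were Retnlg and Ly6g of the neutrophil list, Pax5 of the B cell list, Cd3g, Cd2 and Ncr1 of the T and NK cell list, and Mpo and Elane of the progenitor list. Of the 8 members, 3 had their highest value in this library (Cdkn1a, Phlda3 and Sesn2) and 3 their lowest (Mdm2, Ccng1 and Trp53inp1). With each library scaled to the same sum, Mdm2 and Ccng1 were not lowest in it. Of 16 further genes of the p53 and cell cycle lists described here, mostly picked by smallest p, 8 were highest in it (Trp53, Rpl11, Mdm4, Bax, Btg2, Ephx1, Rps27l and Ccnd1) and 5 lowest. The share of all tested genes with their highest or lowest value in pre-AML 3 was not counted. These counts thus describe the library and are no result about the p53 targets. The part of other cells' RNA in these values was not tested. In bulk RNA, more cells of another type and more RNA per cell cannot be told apart.

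To show what p53 target sequences look like in these genes, the RefSeq promoter windows on GRCm38.p6, which reach from 250 bases before to 50 bases after an annotated start, were searched on both strands for the canonical p53 decamer. Such windows were available for 6 of the 8 genes (9 windows in all) and not for Trp53inp1 and Zmat3. At least 1 decamer without mismatch was found in 3 of these genes, Cdkn1a, Ccng1 and Mdm2, while 8.36% of all 32851 windows held one. A pair of adjacent decamers (20 bases, no spacer, at most 1 mismatch) was found in Cdkn1a and Ccng1, against 29 of all windows, or 0.0883%. This limit leaves out weaker pairs, such as the best one of Bbc3, which had 3 mismatches and began 97 bases before a start. In Cdkn1a the pair began 51 bases before the upstream of its annotated starts, and the window of its other start held none. In Ccng1 it began 195 bases before the start. The 250 bases before each start are shown 5′ to 3′ on the strand of the gene, with the pair in capitals, because these were the members with such a pair and their differences between the groups had opposite signs. Cdkn1a lies on the + strand, and the bases shown are chr17:29090729-29090978 (GRCm38.p6).
Cdkn1a: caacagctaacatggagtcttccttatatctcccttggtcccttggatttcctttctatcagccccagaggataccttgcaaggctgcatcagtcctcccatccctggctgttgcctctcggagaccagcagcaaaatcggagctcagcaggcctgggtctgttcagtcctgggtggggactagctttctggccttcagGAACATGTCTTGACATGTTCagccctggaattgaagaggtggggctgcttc
The bases of Ccng1 are chr11:40755287-40755536 and were written on the - strand.
Ccng1: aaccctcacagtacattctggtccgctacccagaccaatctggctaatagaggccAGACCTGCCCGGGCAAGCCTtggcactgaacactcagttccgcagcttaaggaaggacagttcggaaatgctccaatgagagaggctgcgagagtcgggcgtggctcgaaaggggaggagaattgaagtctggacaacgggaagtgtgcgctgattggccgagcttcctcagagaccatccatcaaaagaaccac
A match is a description of letters, and p53 binding was not measured. Sequence outside these windows was not searched, so the lack of a match here does not mean that a gene has no p53 site.

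Cdkn1a and Ccng1 belong to the cell cycle arm of the p53 program. Cdkn1a (Entrez 12575, chromosome 17, 29090976 to 29100727, + strand of mm10) encodes p21, the inhibitor of cyclin-dependent kinases through which p53 arrests the cycle. It had 6.55, 10.9 and 12.9 FPKM in control 1, 2 and 3 and 10.4, 13.8 and 22.1 FPKM in pre-AML 1, 2 and 3. Control 1 was the lowest and pre-AML 3 by far the highest of the 6, and between these the groups overlapped, since pre-AML 1 lay below control 2 and control 3. The log2 fold change was 0.55 (standard error 0.30, 95% confidence interval -0.14 to 1.23) and limma-trend gave p = 0.526 after Benjamini-Hochberg adjustment over all tested genes, while an exact two-sided permutation test gave p = 0.3, where 0.1 is the smallest value that 3 against 3 libraries allow. Without pre-AML 3 the log2 fold change was 0.27, and without control 1 it was 0.29. On the opposite strand, 273 bases (7.68%) of its exons are shared with the annotated transcript AC167363.2, which the table did not list.

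Ccng1 (Entrez 12450, chromosome 11, 40748552 to 40755311, - strand) encodes cyclin G1, which guides a phosphatase to Mdm2 and takes part in p53 feedback. Its levels were 9.22, 8.68 and 8.16 FPKM in the control libraries and 7.11, 7.46 and 6.36 FPKM in the pre-AML libraries, resting on 332 to 521 reads per library. All 3 pre-AML libraries lay below all 3 controls, as did 12.8% of the genes tested. Its log2 fold change was -0.28 (standard error 0.13, 95% confidence interval -0.58 to 0.01), with an unadjusted p of 0.0590 and an adjusted p of 0.522 from limma-trend, and the exact two-sided permutation test gave p = 0.1, the smallest value possible here. The separation depended on scaling. The library sizes behind the FPKM were not given and were estimated from the FPKM values and annotated lengths. By this estimate the size used for pre-AML 3 was 1.31 times its recovered reads on listed genes, against 0.983 to 1.01 times in the other libraries. With each library scaled to the same sum (TPM), Ccng1 was at 17.0, 16.7 and 15.8 TPM in control and 13.3, 14.7 and 16.9 TPM in pre-AML platelets, where they overlapped.

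Mdm2 (Entrez 17246, chromosome 10, 117688875 to 117710758, - strand) is the ligase that marks p53 for degradation and is itself a direct p53 target. It had 4.69, 4.40 and 4.46 FPKM in control and 4.82, 5.02 and 3.29 FPKM in pre-AML libraries. The controls were nearly equal, pre-AML 1 and 2 lay just above them, and pre-AML 3 lay below all. The log2 fold change of -0.05 (standard error 0.16, 95% confidence interval -0.43 to 0.32, adjusted p = 0.907 from limma-trend) thus averaged libraries on both sides of the controls. Without pre-AML 3 it was 0.10, and with equal sums it was 0.09, with all 3 pre-AML libraries (9.05, 9.87 and 8.74 TPM) above the controls (8.66, 8.46 and 8.65 TPM). Among all tested genes, 11.4% were higher without overlap on that scale.

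Phlda3, Trp53inp1 and Bbc3 act in cell death. Phlda3 (Entrez 27280, chromosome 1, 135766119 to 135769136, + strand) encodes a small protein that competes with the kinase Akt for membrane lipids, and it was the most abundant of the 8 genes, at rank 588 of 14975 in control platelets. Its levels were 35.1, 49.0 and 54.3 FPKM in control and 57.4, 55.7 and 57.8 FPKM in pre-AML libraries, from 643 to 2102 reads. The pre-AML libraries were almost equal (coefficient of variation 1.96%) and all above the controls, which were widely spread (21.4%). The groups did not overlap in this direction for 6.14% of the genes tested, and they stayed apart with each library scaled to the same sum. The log2 fold change was 0.32 (standard error 0.17, 95% confidence interval -0.08 to 0.72, adjusted p = 0.526 from limma-trend, exact two-sided permutation p = 0.1). Much of it rested on control 1, without which it was 0.14.

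Trp53inp1 (Entrez 60599, chromosome 4, 11156431 to 11174379, + strand) encodes a stress-induced nuclear protein that promotes p53 phosphorylation and cell death. It had 7.57, 12.8 and 11.3 FPKM in control and 10.9, 8.32 and 4.47 FPKM in pre-AML libraries. The groups overlapped, since control 1 lay below pre-AML 1 and 2, and pre-AML 3 was the lowest of all. The log2 fold change was -0.42 (standard error 0.30, 95% confidence interval -1.09 to 0.26, adjusted p = 0.584 from limma-trend). Leaving out pre-AML 3 gave -0.10 and leaving out pre-AML 1 gave -0.66, in which case its unadjusted p was 0.0447 and its adjusted p 0.332.

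**Figure D1:**
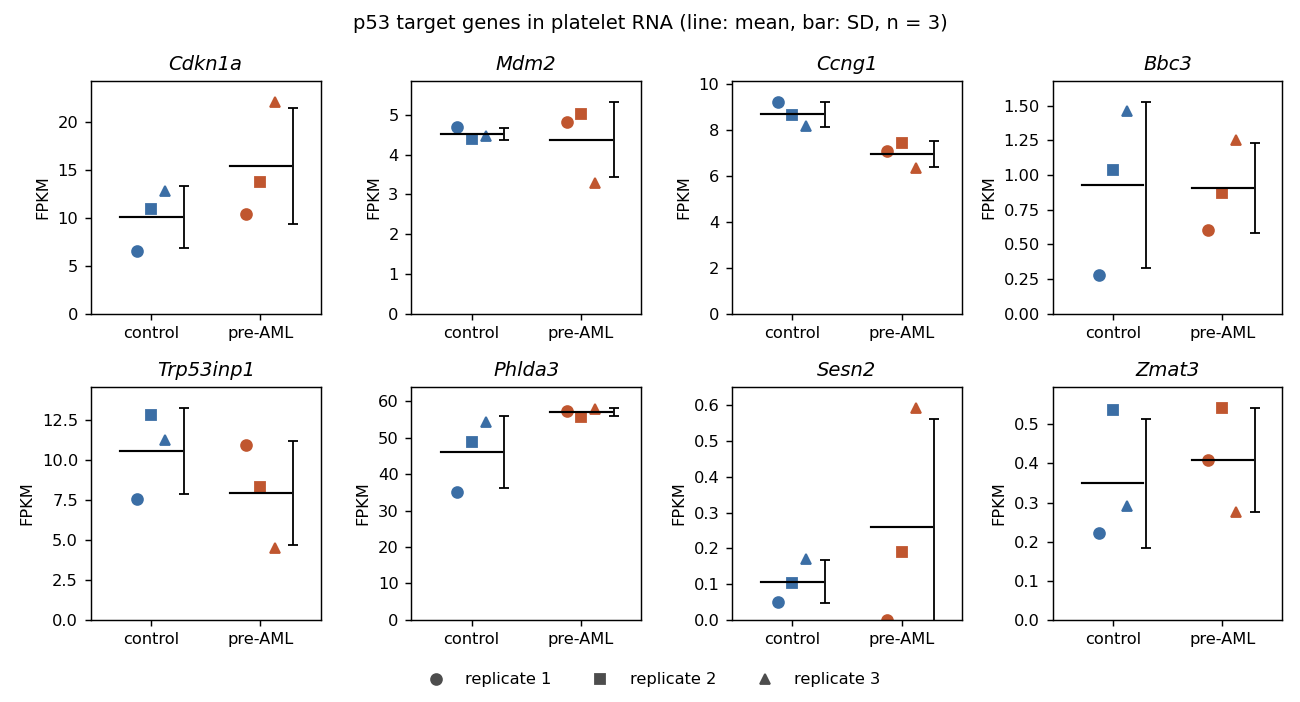
FPKM of the 8 p53 target genes (vertical axis of each panel, linear from 0) in the 3 control and the 3 pre-AML libraries, with symbols for the replicate number, a line for the mean and a bar for the SD (n = 3), which is cut at 0 for Sesn2. The groups do not overlap in the panels of Phlda3 and of Ccng1, which overlapped with equal sums per library, and pre-AML 3 is the highest library for Cdkn1a and the lowest for Mdm2, Ccng1 and Trp53inp1.

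Bbc3, Sesn2 and Zmat3 had a mean under 1 FPKM and were left out of the test across genes, so their values are given with the exact permutation test. Bbc3 (Entrez 170770, chromosome 7, 16308393 to 16318205, + strand) encodes Puma, which triggers mitochondrial apoptosis. It had 0.281, 1.04 and 1.46 FPKM in control and 0.602, 0.874 and 1.25 FPKM in pre-AML libraries, from 7, 31 and 37 reads and 17, 28 and 62 reads. The pre-AML libraries all lay within the range of the controls, with a mean log2 difference of 0.02 (exact two-sided permutation p = 1.0). Control 1 was the lowest control for Bbc3 and for 5 other members (Cdkn1a, Phlda3, Trp53inp1, Sesn2 and Zmat3) and the highest for Mdm2 and Ccng1.

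Sesn2 (Entrez 230784, chromosome 4, 132492032 to 132510501, - strand), which encodes sestrin 2, a leucine sensor that restrains mTORC1 and supports antioxidant defense, was the least abundant of the 8. It was listed at 0.0490, 0.102 and 0.169 FPKM in control and 0, 0.191 and 0.592 FPKM in pre-AML libraries. These values stand for 2, 5 and 7 reads and for 0, 10 and 48 reads, and in pre-AML 1 the limit that a count of 0 allows, 3 reads, corresponds to 0.0649 FPKM. The higher pre-AML mean came from pre-AML 3 (mean log2 difference 0.16 with it and -0.02 without it, exact two-sided permutation p = 0.6 over all 6 libraries).

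Zmat3 (Entrez 22401, chromosome 3, 32334792 to 32366014, - strand), a zinc finger RNA-binding protein that regulates splicing and transcript stability, had 0.221, 0.536 and 0.291 FPKM in control and 0.409, 0.541 and 0.275 FPKM in pre-AML libraries. The ranges of the 2 groups covered nearly the same values, with a mean log2 difference of 0.06 (exact two-sided permutation p = 0.7). The control and pre-AML libraries varied by 47.3% and 32.5% (coefficient of variation). The depth of the libraries was 11936046 to 13876208 recovered reads in control and 13537431 to 17777692 in pre-AML libraries. The limit given for a count of 0 covers counting error only, since the amplified cDNA carried no molecular identifiers. The confidence intervals come from limma-trend and the spread between libraries.

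Counted together, 0 of the 5 tested p53 targets passed an adjusted p of 0.05 in limma-trend, against 1 of 4412 genes (0.0227%). At an unadjusted p under 0.05 the count was also 0 in either direction, where 2.56% of the tested genes were higher and 6.53% lower. With limma-voom on reads recovered from the FPKM values, 0 passed the adjusted threshold and 1 was higher at that unadjusted level, namely Phlda3, as were 5.26% of the genes in that fit. The median log2 fold change of the 5 was -0.05, beside -0.06 for all tested genes, and 2 of the 5 had a value above 0 and 3 below, where 41.5% of all were above and 58.5% below. Relative to the control mean, their median log2 ratio in FPKM was -0.36, 0.11 and 0.11 in control 1, 2 and 3. It was 0.08, 0.13 and -0.36 in pre-AML 1, 2 and 3. The median of pre-AML 3 was the value of Mdm2, and 2 of the 5 (Cdkn1a and Phlda3) lay above the control mean there. This median depended on scaling. With each library scaled to the same sum, Mdm2 was at 8.74 TPM in pre-AML 3, beside 8.46 to 8.66 TPM in control.

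Ratios within a library, which library scaling cannot change, showed the unequal behavior of the members. The FPKM of Phlda3 over that of Ccng1 was 3.81, 5.64 and 6.65 in control and 8.08, 7.47 and 9.09 in pre-AML libraries. That the groups did not overlap in this ratio followed from the FPKM given above and adds nothing to them. In FPKM, Phlda3 was higher and Ccng1 lower in every pre-AML library than in every control. Cdkn1a over Ccng1 was 0.711, 1.26 and 1.58 against 1.46, 1.85 and 3.48, and Cdkn1a over Mdm2 was 1.40, 2.48 and 2.88 against 2.16, 2.75 and 6.72, with overlap in both cases. These ratios were formed after the values had been seen, and the transcripts of Phlda3 and Ccng1 differ in GC content (60.2% and 39.5%). Across the 6 libraries, which share the group difference and the position of pre-AML 3, log2(FPKM + 1) of Cdkn1a and Phlda3 had a Pearson r of 0.79 (0.89 without pre-AML 3), Cdkn1a and Ccng1 of -0.83 (-0.63), and Ccng1 and Phlda3 of -0.80 (-0.86). These were the 3 of 10 pairs whose sign stayed without pre-AML 3. The other 7 turned, among them Mdm2 and Trp53inp1 (from 0.68 to -0.66), Mdm2 and Ccng1 (0.53 to -0.60) and Cdkn1a and Trp53inp1 (-0.50 to 0.43).

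**Figure D2:**
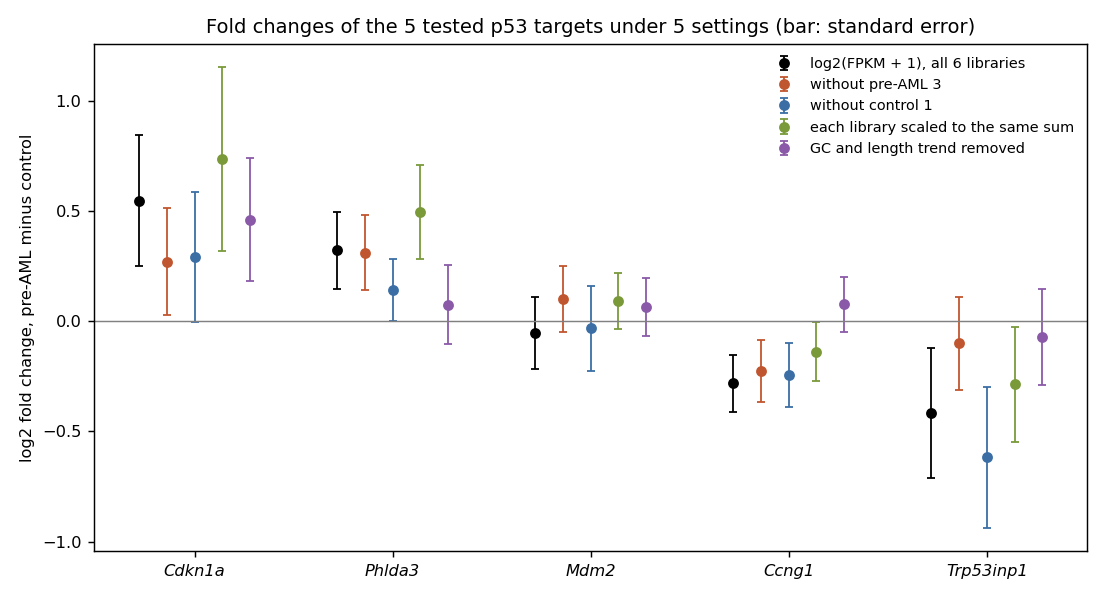
Log2 fold change of pre-AML against control platelets (vertical axis) for the 5 tested p53 targets, with standard errors as bars, for all 6 libraries, without pre-AML 3, without control 1, with each library scaled to the same sum, and with trends in GC content and length removed. Cdkn1a and Phlda3 stay above 0 and Trp53inp1 below 0 in all 5 settings, while Mdm2 and Ccng1 change sign between settings. With the trends removed, all but Cdkn1a have values smaller in size than their standard errors.

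These differences ran along with the base composition of the transcripts. Over all tested genes in 10 bins of GC content, the median log2 fold change went from -0.31 at a median GC content of 41.2% to 0.18 at 59.1%. Ccng1 (39.5% GC) and Trp53inp1 (39.4%) lay at the low end, Mdm2 (47.2%) and Cdkn1a (53.7%) between, and Phlda3 (60.2%) at the high end. For each library, the level of every tested gene relative to its mean over the 6 libraries was set against GC content, and the Spearman correlation across genes was -0.32, -0.41 and -0.33 in the controls and -0.04, 0.32 and 0.51 in pre-AML 1, 2 and 3. The correlation was negative in all 3 controls and highest in pre-AML 3. Since the mean over the 6 libraries includes pre-AML 3, these values depend on each other, and the signs in the controls partly reflect that library.

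With the trends of each library in GC content and length removed, the log2 fold change was 0.08 for Phlda3 and 0.08 for Ccng1, whose sign turned. It was -0.07 for Trp53inp1 and 0.06 for Mdm2. Cdkn1a kept 0.46 (limma-trend, standard error 0.28, adjusted p = 0.785). The groups of Phlda3 and Ccng1, the genes whose groups did not overlap in FPKM, thus differed by less than their standard errors of 0.18 and 0.13 on this scale. Whether a step of library preparation or the RNA itself gave the trend was not tested.

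**Figure D3:**
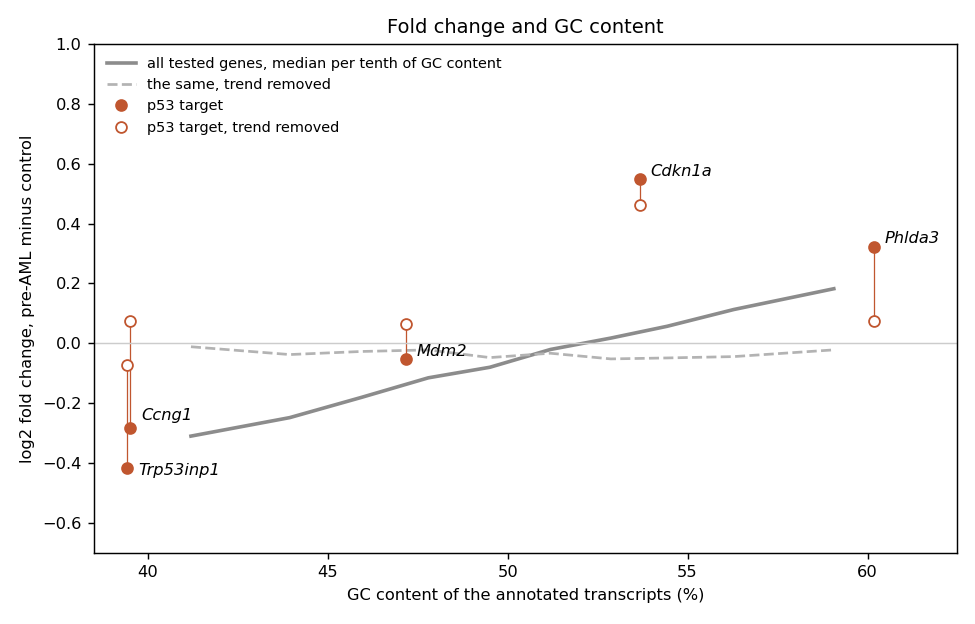
Log2 fold change of pre-AML against control platelets (vertical axis) against GC content of the annotated transcripts in percent (horizontal axis) for the 5 tested p53 targets, as deposited (filled) and after removal of trends with GC content and length (open), with the median of all tested genes per bin of GC content as lines. Ccng1, Trp53inp1 and Phlda3 lie near the line of all genes and move close to 0 with it, and Cdkn1a stays at 0.46.

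Of 16 genes for p53 itself and its regulators, 14 were in the table and 6 passed the filter. Of the 6, 4 had a positive and 2 a negative log2 fold change, and 0 reached an unadjusted p under 0.05 in limma-trend. Of all tested genes, 41.5% were positive, and 2.56% were higher and 6.53% lower at that p. Among the positive ones, Trp53 and the ribosomal protein gene Rpl5 passed the filter only through pre-AML 3 (2.65 and 4.58 FPKM). The count of positive genes thus rests partly on that library. Trp53, the gene of p53, had 0.548, 0.668 and 0.582 FPKM in control and 0.948, 0.770 and 2.65 FPKM in pre-AML libraries, from 26, 38 and 28 against 51, 47 and 250 reads. All pre-AML libraries were above all controls, with pre-AML 3 far above the rest, and the difference on the log2 scale was 0.54 (limma-trend, standard error 0.29, adjusted p = 0.526). Of all genes in the table, 7.53% were higher in pre-AML platelets without overlap. Mdm4, the partner of Mdm2 in restraining p53, was below the filter at 0.509, 0.294 and 0.562 against 0.443, 0.475 and 0.755 FPKM. Rpl11, a ribosomal protein that binds Mdm2 under ribosomal stress, had a log2 fold change of 0.53, which was 0.07 without pre-AML 3. The p53 ubiquitin ligase Rchy1 was at -0.20 and the checkpoint kinase Chek2 at -0.10.

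Beyond the 8 members, 34 other p53 targets were listed, of which 31 were in the table and 9 passed the filter. Of the 9, 7 leaned to pre-AML and 2 to control platelets by the sign of the log2 fold change. At an unadjusted p under 0.05 in limma-trend, 1 gene was higher and 0 lower. Of all tested genes, 41.5% had a positive log2 fold change, and 2.56% were higher and 6.53% lower at that p. Ephx1 and Btg2 passed the filter only through pre-AML 3 (6.57 and 6.23 FPKM) and fell below it without that library. Their signs, and the gene that was higher at this p (Ephx1), thus rest on a filter passed through the library where they were highest. Counting low genes as well, 7 of the 31 were higher in all pre-AML than in all control libraries (Perp, Cd82, Gtse1, Ckap2, Xpc, Gdf15 and Ephx1) and 0 were lower, where 7.53% and 5.74% of all genes were. The other 6 had a mean under 1 FPKM, and Perp and Gdf15 were listed at 0 in all controls. The pre-AML libraries also had more reads than most controls, as given above, and the part of depth in these counts of low genes was not tested. Ephx1, an epoxide hydrolase, had 0.612, 0.547 and 0.172 FPKM in control and 1.35, 1.22 and 6.57 FPKM in pre-AML libraries. The difference on the log2 scale was 1.25 (limma-trend, standard error 0.44, unadjusted p = 0.0208, adjusted p = 0.522).

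Bax, which permeabilizes mitochondria downstream of p53, had 2.92, 3.25 and 1.97 FPKM in control and 2.43, 3.03 and 5.71 FPKM in pre-AML libraries. Its log2 fold change was 0.30 with pre-AML 3, the highest library, and 0.02 without it. The antiproliferative gene Btg2 (log2 fold change 0.75) was between 0.490 and 0.822 FPKM in 5 libraries and at 6.23 FPKM in pre-AML 3. The death receptor gene Fas was at 0.16, the ribosomal protein gene Rps27l at 0.30, the damage-induced arrest gene Gadd45a at -0.21 and the cyclin gene Ccng2 at -0.28, and none of these passed the test.

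Of 21 cell cycle genes, 8 passed the filter, 4 with a positive and 4 with a negative log2 fold change, where 41.5% of all tested genes were positive. Ccnd1 (cyclin D1) had a log2 fold change of 0.61 (unadjusted p = 0.0476, adjusted p = 0.522 from limma-trend), which was 0.29 without pre-AML 3. The pocket protein gene Rb1 was at -0.61 and -0.27 without pre-AML 3, the replication clamp gene Pcna at 0.17, and the inhibitor gene Cdkn1b (p27) at -0.31.

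**Figure D4:**
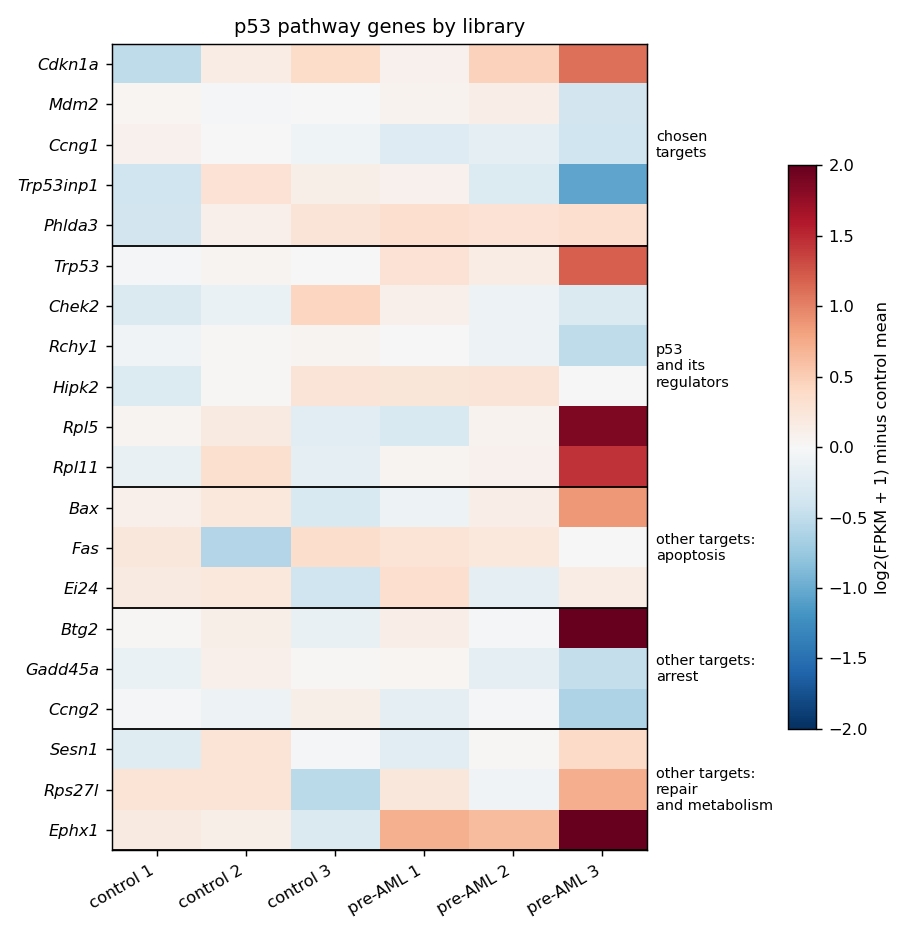
Difference of log2(FPKM + 1) from the control mean (color, capped at 2 in either direction) for the tested p53 targets, p53 and its regulators, and other p53 targets in rows, by library in columns. The strongest colors stand in the pre-AML 3 column, in both directions (Btg2, Rpl5 and Ephx1 high, Trp53inp1 low), and Cdkn1a and Trp53 are highest there as well. Btg2, Rpl5, Ephx1 and Trp53 passed the filter only through that library.

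The genes most like each member over the 6 libraries, by Pearson correlation of log2(FPKM + 1) among tested genes, were Txnip (r = 0.99), Mef2d (0.98) and Use1 (0.98) for Cdkn1a, and Ccdc92 (0.99), 6430548M08Rik (0.99) and Blvrb (0.99) for Phlda3. Txnip, which binds thioredoxin, was at 2.30, 4.15 and 4.55 FPKM in control and 3.57, 5.31 and 10.2 FPKM in pre-AML libraries, in the same order of libraries as Cdkn1a within each group. Mdm2 was most like Fkbp1a, Ctla2a and 1700012I11Rik (0.98 to 0.99), Ccng1 most like Ap1g1, Pigp and Nudt7 (0.99 each), and Trp53inp1 most like Rtn4ip1, Cmah and Gadd45a (0.99 each). Gadd45a, itself a p53 target, had 32.5, 38.4 and 36.4 FPKM in control and 36.5, 31.3 and 25.3 FPKM in pre-AML libraries, and its r with Trp53inp1 was 0.95 without pre-AML 3. With 6 libraries and 4412 genes to choose from, such values describe these libraries alone.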

How the data were processed

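Platelets were purified from blood by depletion of CD45- or Ter119-positive cells, and polyadenylated RNA was amplified with SMART-Seq2 and made into Nextera XT libraries (3 control, 3 pre-AML). The authors mapped reads to mm10 with STAR, used DESeq2 for their own tests and deposited FPKM values for 14975 genes, and the counting program and annotation were not given in the sources used here. Members and gene lists were chosen with earlier results of these data known. Named genes were all 8 members, Trp53, Mdm4, Bax, for every other list up to 2 genes with the smallest p in each direction, and for each tested member the 3 most correlated genes. Rpl5 and the non-overlapping genes were named after their values were seen.

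Groups were compared with limma-trend (version 3.58.1, in R 4.3.3) on log2(FPKM + 1). A gene entered the fit if its mean over the 6 libraries was 1 FPKM or more, as for 4412 genes, no covariate was used, and p-values were adjusted by Benjamini-Hochberg (threshold 0.05). Fold changes on this scale understate those of low genes. For single genes, exact two-sided permutation tests of the difference of means were used (scipy 1.17.1, Python 3.11.15). Reads were recovered from FPKM with GENCODE M21 lengths (14904 genes). Between 82.1% and 83.7% of the values under 1000 reads lay within 0.05 of a whole read. Reads of Cdkn1a and Zmat3, whose values were not whole with these lengths, are approximate. Alternatives changed the filter, pseudocount, scaling, test, weights, pairing, GC and length trends (loess, span 0.5) and the libraries included. Promoter sequences are from RefSeq (GRCm38.p6).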

Additional observations from a re-analysis of the deposited data

How the results depend on the processing

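Over 15 alternatives, 0 of the 5 tested p53 targets passed the adjusted threshold in each, and the number of all tested genes past it was between 0 and 2. Over these, the log2 fold change ranged from 0.27 to 0.78 for Cdkn1a (adjusted p 0.323 to 0.785 from limma), from 0.08 to 0.49 for Phlda3 (0.405 to 0.947), from -0.66 to -0.07 for Trp53inp1 (0.332 to 0.959), from -0.33 to 0.08 for Ccng1 (0.409 to 0.913) and from -0.14 to 0.10 for Mdm2 (0.749 to 0.958). The median of the 5 ranged from -0.14 to 0.10. Scaling to equal sums shifted the median of all genes by 0.17 and limma-voom on recovered reads by 0.13.

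At an unadjusted p under 0.05 in limma, 1 target was higher with limma-voom (Phlda3), with quantile normalization (Phlda3) and with the replicate number as a block (Cdkn1a, adjusted p = 0.569 from limma), and leaving out 1 library gave 0 to 1 higher and 0 to 1 lower. Without pre-AML 1 these were Cdkn1a, higher, and Trp53inp1, lower, and without control 3 it was Phlda3, higher. Of all genes, 5.26% were higher at that level with limma-voom, 4.24% with quantile normalization, 2.67% with the block and 2.26% without control 3, and without pre-AML 1 4.65% were higher and 10.2% lower. Correlations of deviations from the group means were -0.04, -0.12 and -0.17 for the 3 replicate numbers. They cannot tell whether the numbers pair the samples, since the deviations of the libraries within a group depend on each other. With the block 118 genes were higher and 254 lower at that level, against 113 and 288 without it.

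The sign turned for Mdm2 with GC and length trends removed (0.063), array weights (0.093), limma-voom (0.057), equal sums (0.091) and without pre-AML 3 (0.10; -0.14 to 0.10 over libraries left out), and for Ccng1 with the trends removed (0.076). Leaving out 1 library gave -0.25 to 0.23 for Bbc3 (-0.25 without control 1, -0.10 without pre-AML 3), -0.02 to 0.32 for Sesn2 (-0.019 without pre-AML 3) and -0.0040 to 0.16 for Zmat3 (-0.0040 without control 1, -0.0024 without pre-AML 2). Sesn2 was at 0.44 with a pseudocount of 0.1, and Zmat3 at 0.34 with limma-voom and no filter, an alternative chosen after seeing the data. Rchy1 was at 0.0082 and Chek2 at 0.033 with the trends removed. Chek2 was at 0.029 with limma-voom, 0.055 with equal sums and 0.12 without control 3 (-0.24 to 0.12 over libraries left out), and Fas at -0.14 without control 2. The causes were not tested.

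Over all alternatives, counts of genes at an unadjusted p under 0.05 in limma were small. They were 0 to 1 higher for p53 and its regulators (14 genes in the table) and 0 to 1 higher for apoptosis targets (11). For arrest targets (9) they were 0 to 2 higher, and for repair and metabolism targets (11) 0 to 1 higher. For cell cycle genes (21) they were 0 to 1 in either direction. The count of 2 arrest targets arose only with no filter, where genes under 1 FPKM entered and 3.32% of all genes were higher. Over the alternatives, 1.58% to 5.61% of all genes were higher and 2.49% to 10.2% lower at that level. The 95% confidence intervals of the 5 tested targets all included 0 and together reached from -1.09 to 1.23, and the 3 members under 1 FPKM had at most 93 reads in a library.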
